A study of Mus musculus with 14 samples.

Results

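Hspa1b and 9 other heat shock genes were followed in spleen cells of WT and Sting gt/gt mice. The 10 genes were the Hsp70 genes Hspa1a, Hspa1b and Hspa8, their helpers Hsph1, Dnajb1 and Bag3, the Hsp90 gene Hsp90aa1, the small heat shock protein gene Hspb1, and Hspd1 and Hspe1. They were chosen by the measured differences between Sting gt/gt and WT mice on the same 14 arrays, over all mice and in replicates 1 to 3 and 4 to 7 apart. Those differences are therefore given as a description, with no test. All 10 genes were among the 24909 genes and unnamed transcripts tested, of which 14730 had a gene symbol. The group was named after cytosolic heat shock genes, although the products of Hspd1 and Hspe1 work in mitochondria.

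Heat shock proteins are chaperones that bind unfolded proteins and help them to fold, to be repaired or to be degraded. Under heat or other stress to proteins, heat shock factor 1 binds heat shock elements, inverted repeats of the letters GAA in the promoters of many of these genes, and raises their transcription. Lymphocytes hold constitutive Hsp70 and Hsp90 proteins and make more of the inducible ones under stress.

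RNA was taken from splenocytes of 7 WT and 7 Sting gt/gt mice after lysis of the red cells. All 14 mice were C57BL/6 and were 10 to 14 weeks old when immunized. They were studied 2 weeks after injection of complete Freund's adjuvant with type II collagen (CFA + CII), the immunization that starts collagen-induced arthritis in mice. Sting gt/gt mice are homozygous for golden ticket, a chemically induced (ENU) missense allele of Tmem173, the gene now named Sting1, which encodes the adaptor between the sensing of cytosolic DNA and type I interferon. The WT mice were purchased from a different source than the Sting gt/gt line, so that allele, line and source cannot be told apart, and no mouse without CFA + CII was among the samples.

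The RNA of each mouse was labeled with Cy3 and hybridized to its own 1-colour Agilent array. A level is given here as the log2 signal of a probe minus the log2 75th percentile of its array, so that 0 is the 75th percentile and a difference of 1 is a doubling. Levels of different probes were not read as relative amounts of RNA, since probes differ in how strongly they bind. The 75th percentile ran from 562 to 697 intensity units (median 660) in Sting gt/gt and from 587 to 766 (median 662) in WT arrays. Probes well above background numbered 30783 to 33621 (median 31990) in Sting gt/gt and 31118 to 34400 (median 31469) in WT arrays, and precision was limited by how many arrays there were. The 10 genes had 19 probes. Of these, 18 were well above background on all 14 arrays, and 1, the third probe of Hsph1, was so on 2 arrays and was not tested.

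Per the file headers, the arrays of replicates 1 to 3 of both genotypes were read on 1 day (scan day 1) and those of replicates 4 to 7 on a later day (scan day 2). A scan day is the day an array was read and does not say when the spleens were taken or the RNA was made. The arrays lay on 6 slides. On scan day 1, slide 1 held WT replicates 1 and 2 with Sting gt/gt replicate 1, slide 2 held WT replicate 3 with Sting gt/gt replicate 2, and slide 3 held Sting gt/gt replicate 3. On scan day 2, WT replicates 4 and 5 were on slide 4, WT replicates 6 and 7 on slide 5, and all 4 Sting gt/gt arrays on slide 6, so that slide and genotype cannot be told apart on that day.

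Sting1 itself ran from 2.35 to 2.85 (median 2.64) in WT and from 2.45 to 2.77 (median 2.65) in Sting gt/gt mice, and the groups overlapped. The difference was 0.035 (SE 0.095, adjusted p = 1.0 by limma over all genes), so that this probe did not separate the genotypes.

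The first comparison was of the genotypes, which the study set out to compare after CFA + CII. Over all mice, 6 of the 10 heat shock genes were lower and 4 were higher in Sting gt/gt than in WT mice, with a median log2 difference of −0.11. The median over all genes tested was 0.017, and 45.5% of them were lower. Scan day 1 alone had 9 of the 10 lower (median −0.36), beside 46.4% of all genes tested. In the mice of scan day 2, 5 were lower and 5 higher (median 0.08), beside 47.6% of all genes. Hspa1a, Hspa1b, Hspa8, Hsph1 and Dnajb1 were lower on both days. Hsp90aa1, Bag3, Hspb1 and Hspd1 were lower on scan day 1 and higher on scan day 2, and Hspe1 differed by 0.0038 and 0.20. Whether the members' differences changed between the scan days was not tested, since the days apart were part of the choice.

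**Figure D1:**
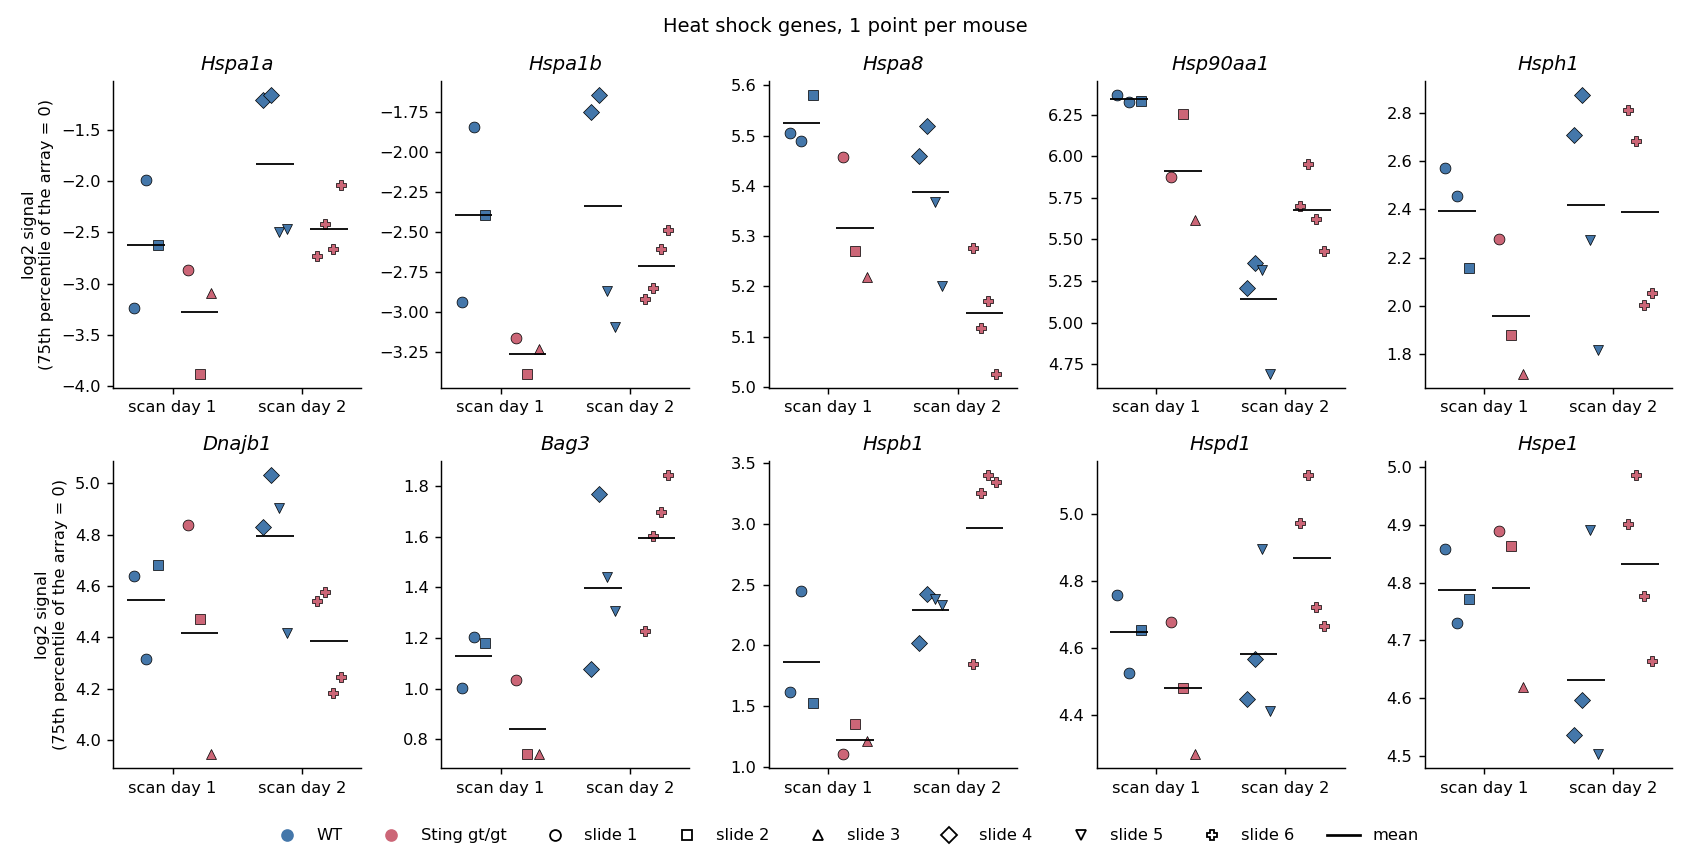
Level of the 10 heat shock genes in each mouse (y axis, log2 signal with the 75th percentile of the array at 0) by genotype (color) and scan day (x axis). Each point is 1 mouse, shapes are slides and bars are means; the 3 Sting gt/gt values of Hspa1b on scan day 1 lie from −3.39 to −3.17, below the WT values of −2.94 to −1.84.

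Across the whole array, 464 genes (1.86%) were higher and 404 (1.62%) were lower in Sting gt/gt mice by an unadjusted p under 0.05, as the study set it, and 1 passed after adjustment over all genes (limma). With the replicate number as a block, to pair the mice, the 868 calls became 1416. Among the Sting gt/gt mice, leaving out replicate 6 gave 496 calls, leaving out replicate 5 gave 539 and leaving out replicate 1 gave 1967. No call is given for the 10 genes in this comparison.

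**Figure D2:**
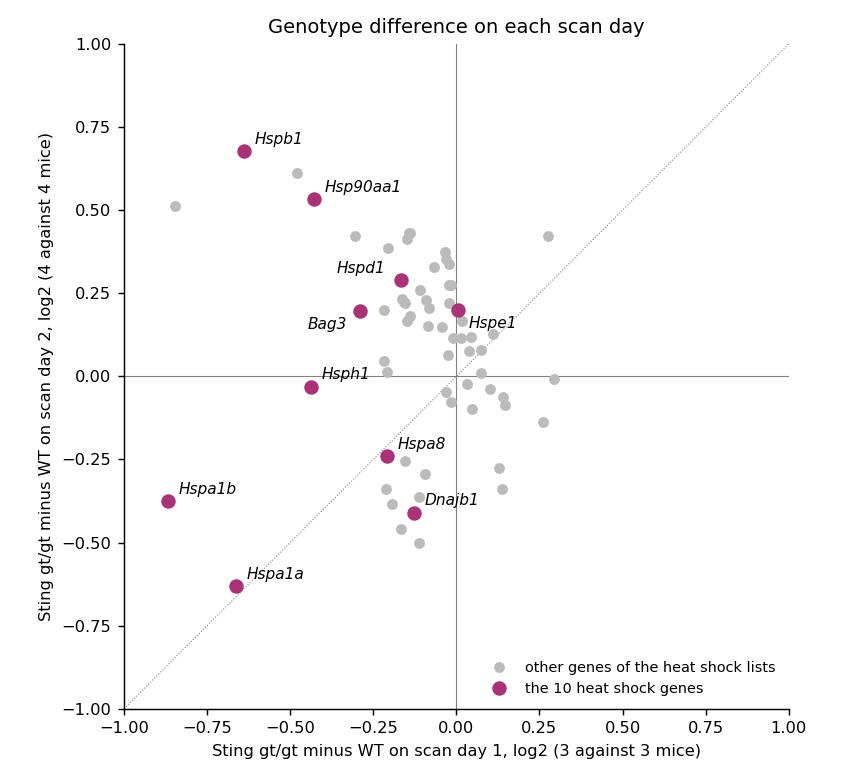
Difference between Sting gt/gt and WT mice on scan day 1 (x axis, log2, 3 against 3 mice) and on scan day 2 (y axis, log2, 4 against 4 mice), 1 point per gene. Hspa1a lies at −0.66 and −0.63, near the dotted line of equal differences, whereas Hspb1 lies at −0.64 and 0.68.

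Hspa1a and Hspa1b encode the stress-inducible Hsp70 proteins. They are near-identical neighbors on chromosome 17 and each had 1 probe, so a probe may bind RNA of both genes and the assignment of a value to either gene is uncertain. Their promoters (250 bases before to 50 after the start, RefSeq, build GRCm38.p6) are shown because both genes varied together from mouse to mouse. Hspa1a lies at chr17:34972107-34972406 and Hspa1b at chr17:34959189-34959488, both on the − strand. Capitals mark the letters of a heat shock element with 2 units, and the windows share 296 of 300 letters (98.7%).
Hspa1a: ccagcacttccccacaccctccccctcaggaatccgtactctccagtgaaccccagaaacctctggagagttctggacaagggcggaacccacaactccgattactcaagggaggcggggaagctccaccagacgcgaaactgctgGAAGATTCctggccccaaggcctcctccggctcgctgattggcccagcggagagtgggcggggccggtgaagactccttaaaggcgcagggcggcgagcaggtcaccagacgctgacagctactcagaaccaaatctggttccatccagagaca
Hspa1b: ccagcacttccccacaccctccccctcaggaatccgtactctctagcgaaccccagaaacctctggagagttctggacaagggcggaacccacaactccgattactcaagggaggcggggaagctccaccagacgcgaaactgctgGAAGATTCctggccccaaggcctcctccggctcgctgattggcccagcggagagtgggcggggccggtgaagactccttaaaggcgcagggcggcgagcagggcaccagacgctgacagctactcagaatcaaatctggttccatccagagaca

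The motifs searched were GAANNTTC and TTCNNGAA, with 2 units, and GAANNTTCNNGAA and TTCNNGAANNTTC, with 3 units, on both strands, and the motifs with 3 units contain those with 2. Of the 10 genes, 8 had an entry (11 windows), and 7 of these held a motif with 2 units. Counted by window, 8 of the 11 held one, beside 15.1% of 32851 promoters. Hspd1, Hspe1 and Hsph1 held one with 3 units, in 4 of the 11 windows, beside 0.603% of all promoters. The windows of Hspa1a and Hspa1b are near copies and those of Hspd1 and Hspe1 overlap, so these windows are not separate observations. Dnajb1 had no match in its windows. Hspa8 and Hsp90aa1 had no entry. A match describes the letters of a window and does not show that a factor bound there.

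Hspa1a was −3.24, −1.99 and −2.63 in WT and −2.87, −3.88 and −3.10 in Sting gt/gt mice on scan day 1. Scan day 2 gave −1.20, −1.16, −2.50 and −2.46 in WT and −2.74, −2.42, −2.66 and −2.04 in Sting gt/gt mice. The genotypes overlapped on both days, and the highest values were those of WT replicates 4 and 5. The difference between Sting gt/gt and WT was −0.65 over all mice, −0.66 on scan day 1 and −0.63 on scan day 2. Over 30 alternatives of processing, model and arrays it ran from −0.83 to −0.36. Hspa1b was −2.94, −1.84 and −2.40 in WT and −3.17, −3.39 and −3.23 in Sting gt/gt mice on scan day 1. The values of scan day 2 were −1.75, −1.64, −2.87 and −3.10 in WT and −2.92, −2.85, −2.60 and −2.49 in Sting gt/gt mice. All 3 Sting gt/gt values were below the WT values on scan day 1, whereas on scan day 2 the Sting gt/gt values lay below WT replicates 4 and 5 and overlapped those of WT replicates 6 and 7. The difference was −0.59 over all mice, −0.87 on scan day 1 and −0.38 on scan day 2, and over the same 30 alternatives it ran from −0.87 to −0.36.

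On scan day 2, WT replicates 4 and 5 (slide 4) averaged −1.18 for Hspa1a and WT replicates 6 and 7 (slide 5) averaged −2.48. For Hspa1b the means of these slides were −1.70 and −2.98. The gaps of 1.30 and 1.29 within WT were thus larger than the genotype differences of these genes over all mice and on each scan day. Within the slides that held both genotypes, the Sting gt/gt value of Hspa1b was lower by a difference of −0.77 on slide 1 and −0.99 on slide 2, and that of Hspa1a by −0.25 and −1.26. On slide 1, 7 of the 10 genes were lower in the Sting gt/gt mouse, and on slide 2, 9 were. Each count rests on 1 Sting gt/gt array, and the share of all genes within a slide was not taken. The genes were chosen by differences that include these arrays, so the counts are only a description. With slide as a fixed block, a fit added after seeing the data that rests on these 5 arrays, the differences were −0.68 for Hspa1a and −0.87 for Hspa1b, and those of 4 genes turned sign: Dnajb1 to 0.12, Hsp90aa1 to −0.31, Hspb1 to −0.60 and Hspd1 to −0.054.

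Hspa8 encodes the constitutive Hsp70 of the cytosol. On its probe of highest signal the level ran from 5.20 to 5.58 (median 5.49) in WT and from 5.03 to 5.46 (median 5.22) in Sting gt/gt mice, and the groups overlapped. The Sting gt/gt values were all below the WT values on scan day 1 and overlapped them on scan day 2. The difference was −0.23 over all mice, −0.21 on scan day 1 and −0.24 on scan day 2, and the other 3 probes gave −0.16, −0.14 and −0.14. The spread of Hspa8 between mice was narrow, with an SD of 0.13 in WT and 0.14 in Sting gt/gt mice.

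Hsph1, Dnajb1 and Bag3 act with Hsp70. Hsph1 encodes Hsp110, which exchanges the nucleotide of Hsp70, and ran from 1.82 to 2.88 (median 2.45) in WT and from 1.72 to 2.81 (median 2.05) in Sting gt/gt mice. Its difference was −0.21 over all mice, −0.44 on scan day 1 and −0.03 on scan day 2, and the genotypes overlapped on both days. Leaving out Sting gt/gt replicate 3 or WT replicate 5 gave −0.12 or −0.13. Its second probe gave −0.29 over all mice, −0.78 on scan day 1 and 0.07 on scan day 2. Dnajb1 encodes a J protein, Hsp40, that brings clients to Hsp70 and starts its ATPase. It ran from 4.31 to 5.03 (median 4.68) in WT and from 3.94 to 4.84 (median 4.47) in Sting gt/gt mice, with overlap on both days. Its difference was −0.29 over all mice, −0.13 on scan day 1 and −0.41 on scan day 2. Bag3 releases clients from Hsp70 and links it to autophagy. It ran from 1.002 to 1.77 (median 1.20) in WT and from 0.74 to 1.84 (median 1.23) in Sting gt/gt mice. The groups overlapped on both days, and the Bag3 difference was −0.012 over all mice, −0.29 on scan day 1 and 0.20 on scan day 2. With 1 mouse left out it ran from −0.11 (Sting gt/gt replicate 7) to 0.076 (Sting gt/gt replicate 2).

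Hsp90aa1 encodes the inducible cytosolic Hsp90, which matures kinases and steroid receptors. Its probe of highest signal read 6.37, 6.33 and 6.33 in WT and 5.87, 6.25 and 5.61 in Sting gt/gt mice on scan day 1. The later arrays read 5.21, 5.36, 5.32 and 4.69 in WT and 5.70, 5.95, 5.62 and 5.43 in Sting gt/gt mice. All Sting gt/gt values were below the WT values on scan day 1 and all were above them on scan day 2. The difference was −0.43 on scan day 1, 0.53 on scan day 2 and 0.12 over all mice, and the last ran from −0.040 (without WT replicate 7) to 0.24 (without WT replicate 1) when 1 mouse was left out. With slide as a block it was −0.013 (random) or −0.31 (fixed). The second probe gave −0.34, 0.22 and −0.018. In WT mice the groups of the scan days were apart, from 6.33 to 6.37 against 4.69 to 5.36.

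Hspb1 encodes Hsp25, a small heat shock protein that holds unfolded proteins and binds actin filaments. Its promoter is shown because this gene had the largest scan day difference of the 10 genes on their probes of highest signal; it lies at chr5:135887669-135887968 on the + strand (GRCm38.p6, RefSeq), and capitals mark a pair of motifs with 2 units.
Hspb1: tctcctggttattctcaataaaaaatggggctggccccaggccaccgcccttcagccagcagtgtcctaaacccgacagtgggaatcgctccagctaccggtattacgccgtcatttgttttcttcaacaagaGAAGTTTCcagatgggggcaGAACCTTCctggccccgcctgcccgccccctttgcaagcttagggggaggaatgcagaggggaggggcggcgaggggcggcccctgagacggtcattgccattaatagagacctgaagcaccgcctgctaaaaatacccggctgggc

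Hspb1 was 1.61, 2.45 and 1.53 in WT and 1.104, 1.35 and 1.21 in Sting gt/gt mice on scan day 1. Its values on scan day 2 were 2.02, 2.42, 2.38 and 2.33 in WT and 1.85, 3.26, 3.40 and 3.35 in Sting gt/gt mice. All Sting gt/gt values were below the WT values on scan day 1, whereas on scan day 2 Sting gt/gt replicates 5, 6 and 7 were above every WT mouse and replicate 4 was below them. The genotypes differed by −0.64 on the earlier day and by 0.68 on the later one. Over all mice the difference was 0.11, and it became −0.061, −0.085 or −0.076 without Sting gt/gt replicate 5, 6 or 7 and 0.30 without replicate 1. A random or fixed block for slide gave −0.32 or −0.60.

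Of the other small heat shock genes, 5 of 6 were tested. Hspb7, which belongs to the same family, differed between the genotypes by −0.48 on scan day 1 and 0.61 on scan day 2. Hspb8, a partner of Bag3, differed by −0.85 and 0.51, and Cryab by −0.021 and 0.34. Hspb2 was higher on both days (0.28 and 0.42) and Hspb6 was lower on both (−0.15 and −0.26). Hspb8 was first picked out because of its values, and the relations below were looked for after the values were seen. As deviations from the mean of each genotype and scan day, Hspb1 correlated with Hspb7 at Pearson's r = 0.88 (Spearman's rho 0.80, 14 arrays; r = 0.74 without the 2 arrays farthest in Hspb1) and with Hspb8 at 0.04. Its r was 0.55 with Cryab, 0.58 with Hspb2 and −0.016 with Hspb6, and 0.17 and 0.20 for the first and second of these without the 2 farthest arrays. Bag3 correlated with Hspb1 at 0.64 (rho 0.60) and at 0.30 without the 2 farthest arrays, so that this relation rests on those arrays.

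Of the markers of stroma and endothelium, both collagen genes varied with Hspb1 and the endothelial genes Pecam1 and Cdh5 did so less or not at all. The summed signal of the list (Col1a1, Col3a1, Pecam1 and Cdh5, with the highest signal from Col3a1), in units of the 75th percentile, was 6.49 to 8.84 in WT and 5.38 to 5.66 in Sting gt/gt mice on scan day 1, and 5.08 to 7.47 in WT and 7.004 to 10.9 in Sting gt/gt mice on scan day 2. All 4 genes were well above background on all arrays. The collagen gene Col1a1 differed between the genotypes by −0.60 on scan day 1 and 0.61 on scan day 2, and Col3a1 by −0.46 and 0.62. Pecam1 differed the other way, by 0.13 and −0.16, and Cdh5 by −0.17 and 0.23. Hspb1 correlated with Col1a1 at r = 0.80 (rho 0.66; 0.62 without the 2 farthest arrays) and with Col3a1 at 0.66 (rho 0.58; 0.53). With Pecam1 r was −0.18 (rho −0.31; −0.16) and with Cdh5 0.34 (rho 0.27; 0.16). In RNA of whole splenocytes, fewer cells of a type and less RNA per cell cannot be told apart, and the part of stromal cells in the Hspb1 values was not tested.

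Hspd1 and Hspe1 encode Hsp60 and Hsp10, the chaperonin of the mitochondrial matrix and its lid. The genes lie head to head on chromosome 1 and share the stretch between their starts, so the promoter windows overlap. The Hspe1 window is shown, at chr1:55087898-55088197 on the + strand (GRCm38.p6, RefSeq), and the Hspd1 window, chr1:55087883-55088182 on the − strand, holds the same motif; capitals mark a run that contains both motifs with 3 units.
Hspe1: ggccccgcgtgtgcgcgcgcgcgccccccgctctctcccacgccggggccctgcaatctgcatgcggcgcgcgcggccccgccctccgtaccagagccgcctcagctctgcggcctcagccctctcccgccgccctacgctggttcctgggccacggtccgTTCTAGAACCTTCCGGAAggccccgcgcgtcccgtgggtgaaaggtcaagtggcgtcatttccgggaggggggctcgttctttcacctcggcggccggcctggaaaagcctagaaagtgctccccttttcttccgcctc

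Hspd1 ran from 4.41 to 4.90 (median 4.57) in WT and from 4.28 to 5.12 (median 4.68) in Sting gt/gt mice. Hspe1 ran from 4.50 to 4.89 (median 4.73) in WT and from 4.62 to 4.99 (median 4.86) in Sting gt/gt mice. The genotypes overlapped on both days for both genes. Hspd1 differed by 0.09 over all mice, by −0.17 on scan day 1 and by 0.29 on scan day 2, and Hspe1 by 0.12, 0.0038 and 0.20. The second probe of Hspe1 gave 0.12, 0.042 and 0.18 and the third gave −0.14, 0.036 and −0.27. The 0.09 of Hspd1 became 0.025 without Sting gt/gt replicate 5, 0.16 without replicate 3, and −0.0046 or −0.054 with slide as a random or fixed block.

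The second comparison was of the scan days, with genotype in the model. The choice of the genes did not use this difference, so it was tested. Of the 10 genes, 3 (30%) were higher on scan day 2 (Hspa1a, Bag3 and Hspb1), 1 (10%) was lower (Hsp90aa1) and 6 were not called at an adjusted p under 0.05. Over all genes tested, 17.1% were higher and 21.6% were lower, so the arrays differed widely between the days and the members' counts are few to set beside these shares. The groups of the scan days overlapped for all 10 genes.

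Hspb1 ran from 1.104 to 2.45 (median 1.44) on scan day 1 and from 1.85 to 3.40 (median 2.40) on scan day 2, a difference of 1.08 (SE 0.28, n = 6 and 8, adjusted p = 0.0080 by limma). In WT mice the difference was 0.43 and in Sting gt/gt mice 1.74. Hspa1a ran from −3.88 to −1.99 (median −2.98) on scan day 1 and from −2.74 to −1.16 (median −2.44) on scan day 2, and rose by 0.81 (SE 0.27, adjusted p = 0.028). The Hspa1a call was lost without WT replicate 1, 4 or 5 or Sting gt/gt replicate 2 or 7, where the difference was 0.67 to 0.74 (adjusted p = 0.052 to 0.075). Bag3 was higher by 0.51 (SE 0.14, adjusted p = 0.0084). Hsp90aa1 fell by 0.72 (SE 0.18, adjusted p = 0.0060), from a median of 6.29 to 5.39. Hspa1b differed by 0.30 (SE 0.24, adjusted p = 0.35) and did not pass the test, and whether it differed from Hspa1a in this was not tested.

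**Figure D3:**
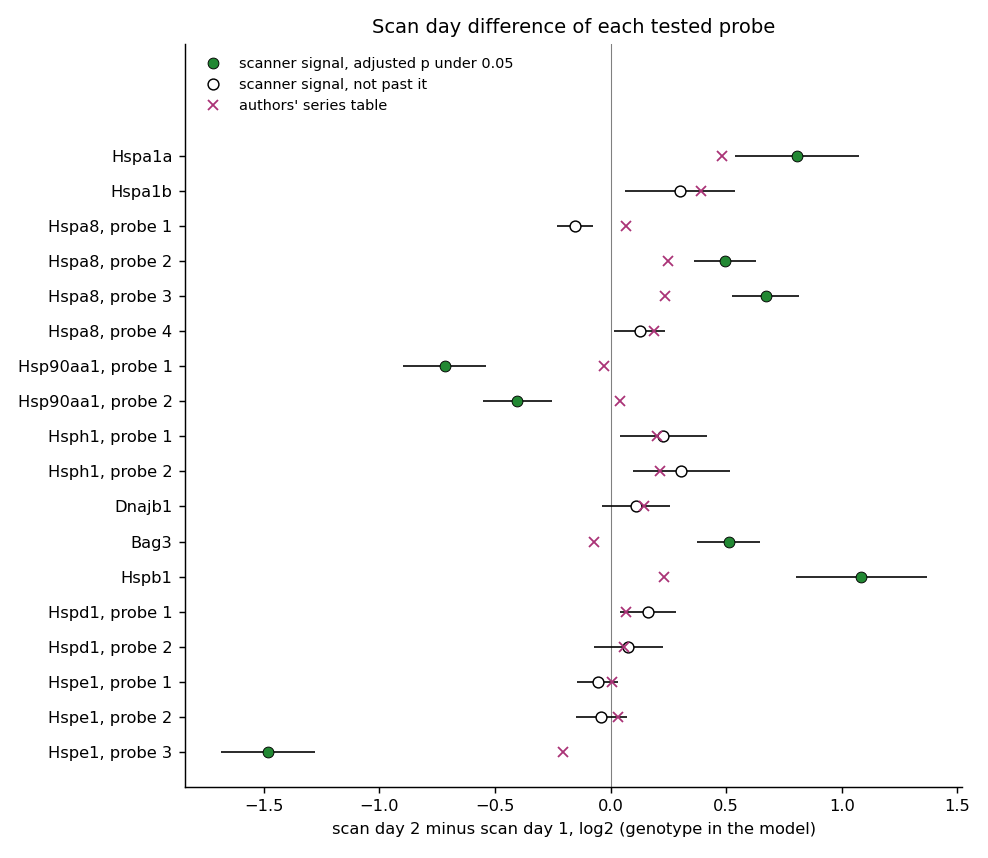
Difference between the scan days (x axis, log2, scan day 2 minus scan day 1) of the 18 tested probes, with SE as bars and filled points at an adjusted p under 0.05. Crosses are the same difference in the series table of the authors, for instance 0.23 against 1.08 for Hspb1.

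In a fit over all tested probes, each probe on its own, 5 of the 18 probes were higher and 3 were lower on scan day 2, beside 17.6% and 21.4% of all probes tested. Probes of 1 gene did not always move alike. The probe of Hspa8 with the highest signal differed by −0.15 (adjusted p = 0.13), whereas the others differed by 0.49, 0.67 and 0.13, of which the first and second passed the test, and the mean of the 4 probes was higher by 0.28 (adjusted p = 0.030, gene fit). The third probe of Hspe1 fell by 1.48 (SE 0.20, adjusted p = 6.2e-05), whereas the other probes of Hspe1 differed by −0.057 and −0.040, and the mean of its probes fell by 0.53 (adjusted p = 0.0035, gene fit). Under quantile normalization Hspd1 was higher by 0.28 and passed (adjusted p = 0.029). Which transcripts these probes bind was not tested, since the files do not give the probe sequences.

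The scan day differences depended on the table used. In the series table of log2 values that the authors deposited, limma called 0 genes between the scan days after adjustment and 347 at an unadjusted p under 0.05, and 0 of the 10 genes. The median size of the scan day difference over all genes was 0.065 in the series table and 0.266 in the scanner values, while the median size of the genotype difference was 0.104 and 0.111. Hspa1a differed by 0.48 between the scan days in the series table, Hspb1 by 0.23, Bag3 by −0.071 and Hsp90aa1 by −0.029. The genotype differences of each day were similar in both tables, with −0.54 and 0.49 for Hsp90aa1 and −0.59 and 0.61 for Hspb1 in the series table.

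Whether the genotype difference itself differed between the scan days was tested over all genes, and 190 (0.763%) passed at an adjusted p under 0.05. The count was 0 without WT replicate 2, 4, 6 or 7 or Sting gt/gt replicate 5 or 6 (limma; 3657 to 4487 at an unadjusted p under 0.05, 4476 with all arrays), 1 without replicate 3 of either genotype, 81 without WT replicate 1, 69 when Sting gt/gt replicate 1 was left out, and 296 and 752 without Sting gt/gt replicates 4 and 7. None of the 55 other heat shock genes tested passed (limma), and 8 had an unadjusted p under 0.05.

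How the 10 genes varied from mouse to mouse was described by the correlation of their deviations from the mean of each genotype and scan day, over 14 arrays and 45 pairs of genes. Arrays share slides, so these values carry no test. Hspa1a and Hspa1b correlated at r = 0.91 (rho 0.91; 0.88 without the 2 farthest arrays), where shared binding of the probes cannot be told apart from shared expression. Hspd1 and Hspe1 correlated at 0.96 (rho 0.96; 0.94). Hspa8, Hsph1, Dnajb1, Hsp90aa1, Hspd1 and Hspe1, a set formed after the values were seen, correlated positively in all their pairs, from 0.36 for Hspa8 with Hspe1 upward. Hspa1b correlated with Hspa8 at 0.44 (rho 0.31) and at 0.04 without the 2 farthest arrays. In the set above this value was taken for 5 pairs (0.61 to 0.94) and not for the weakest ones.

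**Figure D4:**
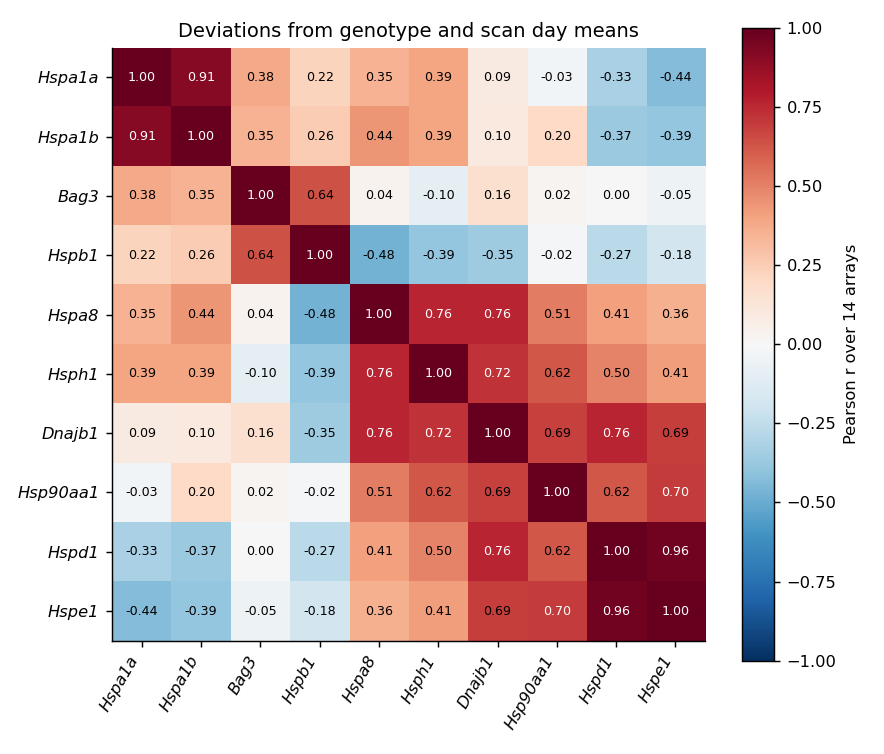
Pearson's r between the 10 heat shock genes over 14 arrays, after the mean of each genotype and scan day was taken away (color and number in each cell). Hspa1a with Hspa1b (0.91) and Hspd1 with Hspe1 (0.96) are the highest pairs.

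The 7 genes whose deviations were most like those of Hspa1b over the 14 arrays were Pcp4l1 (r = 0.94), Bptf (0.94), Pdk4 (0.93), Dmrt1 (0.93), Amdhd1 (0.93), Inafm2 (0.92) and Tle1 (0.92). Hspa1a came at rank 10 of 14722 genes with a symbol, and the next of the 10 genes was Hspa8 at rank 2184. The genotype differences of these 7 genes ran from −0.065 for Tle1 to 0.14 for Dmrt1.

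The wider heat shock system was followed in 8 lists with 59 genes, of which 55 were tested. Hsf4, Hspa1l, Dnajb5 and Hspb3 were not tested. Of the 55 genes, 15 were higher and 2 lower on scan day 2, with a median difference of 0.06, beside 17.1% and 21.6% of all genes tested. The counts of the single lists are few and are given as a description beside these shares. At an unadjusted p under 0.05, 0 of the 55 were higher and 2 were lower in Sting gt/gt mice (limma). By genotype, 15 of the 55 were lower over all mice (median 0.06), 38 on scan day 1 (median −0.04) and 18 on scan day 2 (median 0.13), beside 46.4% and 47.6% of all genes on these days. The difference between these counts was not tested.

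**Figure D5:**
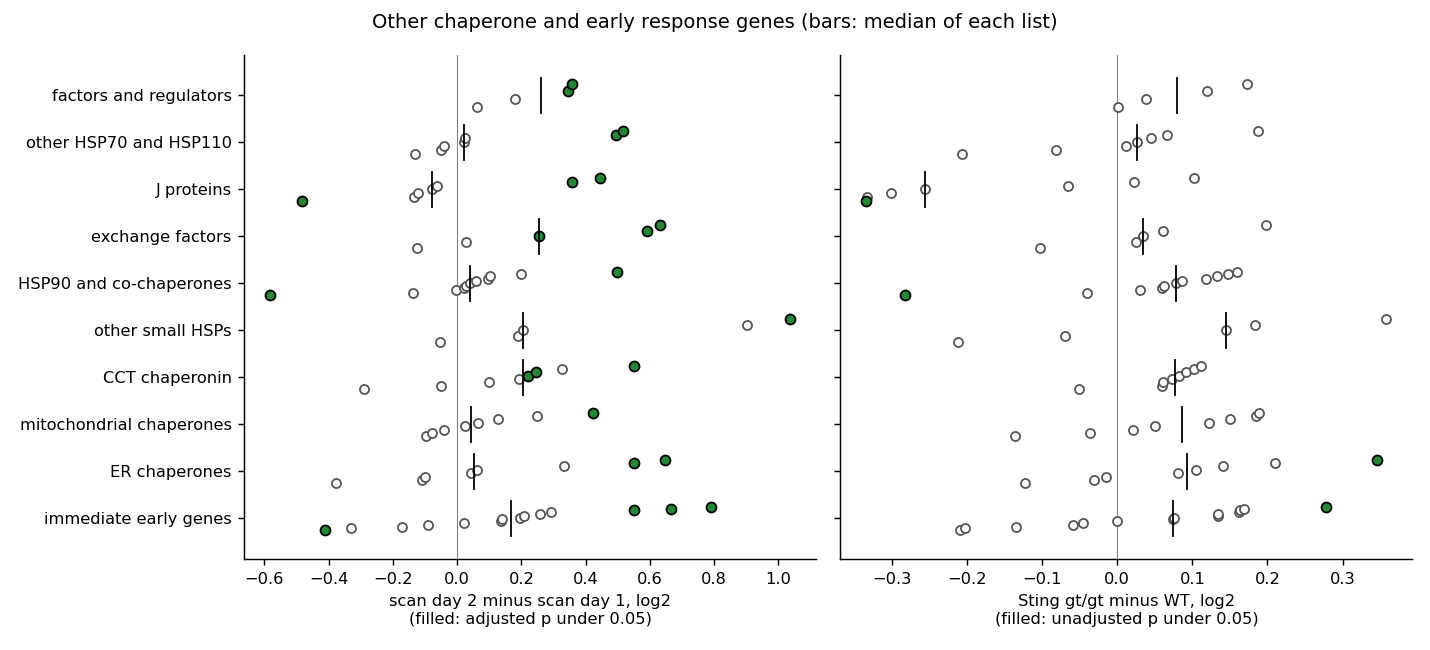
Difference between the scan days (left, log2) and between Sting gt/gt and WT mice (right, log2) for each tested gene of 10 lists (rows), with bars at the median of each list and filled points past the threshold. On the left, Hspb7 is highest at 1.04 and Ppp5c lowest at −0.58.

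Of the factors and regulators of the heat shock response, 2 of 4 were higher on scan day 2. These were Hsbp1, which binds heat shock factor 1, by 0.36 and Ier5, which acts on the same factor, by 0.34. Of the other Hsp70 and Hsp110 genes, 2 of 7 were higher, Hspa2 by 0.52 and Hspa12a by 0.50. Of the J proteins, 2 of 7 were higher, Dnaja1 by 0.44 and Dnajc7 by 0.36, and Dnajb2 fell by 0.48. The calls of Dnajc7 (without Sting gt/gt replicate 4 or 7, 0.33 to 0.34) and Dnajb2 (without WT replicate 3, −0.43) were lost without these arrays, that of Dnajb2 also with median centring (−0.30), no scaling and the mean of probes (−0.45 each), and the Dnajc7 difference was 0.22 without Sting gt/gt replicate 1, where the call held.

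Of the exchange factors of Hsp70, 3 of 5 were higher on scan day 2, Bag2 by 0.63, Bag4 by 0.59 and Bag5 by 0.26, beside 0.51 for Bag3. The Bag2 call was lost without WT replicate 2 (0.50) and that of Bag5 with no scaling (0.29). Of the Hsp90 genes and co-chaperones, 1 of 11 was higher, the Hsp70 cofactor gene St13 by 0.50, and the phosphatase gene Ppp5c fell by 0.58 (−0.25 with the mean of its probes, where the call was lost). Of the small heat shock genes, 1 of 5 was higher, Hspb7 by 1.04 (SE 0.35, adjusted p = 0.028), beside 1.08 for Hspb1. The Hspb7 call was lost without Sting gt/gt replicate 1, 2, 3 or 5 (0.88 to 1.02) and with array weights (0.80), and Hspb8 differed by 0.90 (adjusted p = 0.051) and did not pass.

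Of the cytosolic chaperonin CCT, which folds actin and tubulin, 3 of 8 genes were higher, Cct3 by 0.55, Cct2 by 0.24 and Cct4 by 0.22. The call of Cct2 was lost without WT replicate 2, 5 or 6 or Sting gt/gt replicate 2, 3, 4 or 5 (0.21 to 0.25), and that of Cct4 without WT replicate 2, 3, 5 or 6 or Sting gt/gt replicate 3, 5 or 6 (0.19 to 0.23). Both calls were also lost with no scaling (0.28 and 0.25) and no filter on dim probes (0.24 and 0.22), and that of Cct2 when slide was made a random block (0.25). Of the mitochondrial chaperones and proteases, which work beside Hspd1 and Hspe1, 1 of 8 was higher, the J protein gene Dnaja3 by 0.42 (−0.041 in the series table).

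By genotype, Dnajb4, a J protein gene, was lower in Sting gt/gt mice by a difference of −0.33 (SE 0.15, unadjusted p = 0.039 by limma, adjusted p = 1.0), with −0.11 on scan day 1 and −0.50 on scan day 2. Its call was lost without any 1 of 9 arrays (WT replicates 1, 3, 5 and 6 and Sting gt/gt replicates 2, 3, 5, 6 and 7; −0.34 to −0.29), on scan day 1 alone and in the fit that took slide for a random block (−0.17), and the difference was 0.09 with slide as a fixed block. Chordc1, a co-chaperone of Hsp90, was lower by a difference of −0.28 (SE 0.09, unadjusted p = 0.0075 by limma, adjusted p = 1.0), with −0.21 and −0.34, and its call was lost on scan day 1 alone and with slide as a fixed block (−0.22). Beside these 2 of 55 genes stand the 1.62% of all genes that were lower.

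Beside the cytosolic genes, 8 chaperone genes of the endoplasmic reticulum were tested. By scan day, 2 of them were higher on the second, Dnajc3 by 0.65 and Dnajb9 by 0.55 (0.28 with the mean of its probes, where the call was lost). By genotype Sdf2l1 was higher by 0.35 (unadjusted p = 0.026 by limma, adjusted p = 1.0), with 0.09 on scan day 1 and 0.54 on scan day 2. This call was lost without WT replicate 4 or 5 or Sting gt/gt replicate 5 or 6 (0.26 to 0.32); pairing the mice by replicate number gave an unadjusted p of 0.055. It was lost as well with median centring (0.33), no scaling (0.29), scan day 1 alone and slide as a random block (0.22) or as a fixed block (0.059). Hsp90b1, the Hsp90 of this compartment, had a genotype difference that differed between the scan days (adjusted p = 0.036 by limma), a call that was lost without any 1 of 10 arrays (adjusted p up to 0.105), with no scaling (0.143) and with no filter on dim probes (0.110).

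Immediate early genes, which cells induce within minutes of a stimulus, were followed as a list of 14 genes. The arrays of scan day 2 had 3 of them higher, Egr2 by 0.79, Atf3 by 0.67 and Nr4a1 by 0.55, and Jund fell by 0.41. The Jund difference was 0.16 under quantile normalization, 0.14 after normexp background correction and 0.080 in the series table, and its call was also lost with median centring (−0.23) and the mean of probes (−0.16). By genotype Ier3 was higher by 0.28 (unadjusted p = 0.020 by limma, adjusted p = 1.0), with 0.14 and 0.38. The Ier3 call was lost in 5 of 30 alternatives, namely median centring (0.27), no scaling (0.22), slide as a random block (0.21) or as a fixed block (0.10), and scan day 1 alone. The part of cell handling in the values of the 10 genes was not tested.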

How the data were processed

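Total RNA of splenocytes from 14 mice was measured on 14 arrays. Per the file headers, the authors made the intensity values with Agilent Feature Extraction 11.0.1.1, with background corrected and no step between arrays. The series table the authors deposited holds log2 values of unnamed normalization. Log2 intensities minus the 75th percentile of each array were used without spots marked as outliers. A probe was tested if 7 or more of 14 arrays had it well above background, with the probe of highest mean for each gene. Accessions gave symbols for 32994 of 56605 probes (RefSeq, GRCm38.p6), and 0 columns were left out. Differences were tested with limma 3.58.1 (R 4.3.3) over all genes with Benjamini-Hochberg adjustment; matplotlib 3.10.9 drew the figures and pandas 2.3.3 with numpy 2.4.6 (Python 3.11.15) made the counts, and the code was tested on simulated data. Mice with the same replicate number deviated together (r = 0.156 to 0.533), though within a scan day r was −0.41 to 0.25, so a fit with replicate number as a block was run too. The 10 genes and all lists were chosen with earlier results of these data known; named genes were the 10, Sting1, up to 3 called genes per list and direction, and the genes most like Hspa1b. Alternatives covered scaling, background, filters, probes, weights, slides, scan day, the authors' table and each array left out; slide as a fixed block and every probe on its own were added after seeing the data.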

Additional observations from a re-analysis of the deposited data

Results flagged for a closer look

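Hspb1 in Sting gt/gt replicate 4 was 1.85, the lowest of the 4 Sting gt/gt mice on scan day 2, and lay far from 3.26, 3.40 and 3.35 in the others by Dixon's test. It was the 1 such sample in 40 groups of values tested, where chance gives about 1 in 20 groups.

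The genotypes were apart for Hsp90aa1 in opposite directions on the scan days, with every Sting gt/gt value below the WT values on scan day 1 and above them on scan day 2. The difference on scan day 2 less that on scan day 1 was 0.96, and this difference was not tested. This holds for the probe of highest signal. On the other tested probe the values overlapped on scan day 2 (4.60 to 5.05 in Sting gt/gt and 4.21 to 4.90 in WT mice), with a difference of 0.22. The summed signals of the endoplasmic reticulum chaperone list and the plasma cell list were apart in the same directions. Hsp90b1 and Jchain had the highest signals of these lists. Of the 8 chaperone genes, 7 were lower in Sting gt/gt mice on scan day 1 and 1, Dnajb9, on scan day 2. Of the 5 plasma cell genes, 3 and 2 were lower. These numbers stand beside 46.4% and 47.6% of all genes. For the chaperone list the sums were 111 to 120 in WT and 88.9 to 97.8 in Sting gt/gt mice on scan day 1. On scan day 2 they were 88.1 to 107 in WT and 112 to 147 in Sting gt/gt mice. The part of plasma cells in the Hsp90aa1 values was not tested.

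For 2 listed genes the genotype difference itself differed between the scan days (limma, adjusted p = 0.036 for both). Hsp90b1 was 5.67, 5.75 and 5.63 in WT and 5.15, 5.49 and 5.34 in Sting gt/gt mice on scan day 1, and 5.70, 5.43, 5.52 and 5.43 in WT and 6.10, 6.20, 6.38 and 5.95 in Sting gt/gt mice on scan day 2, a change of 0.999 in the difference. Sdc1, a marker of plasma cells, was −2.45, −2.70 and −2.21 in WT and −2.63, −2.66 and −2.72 in Sting gt/gt mice on scan day 1, and −2.43, −2.48, −2.54 and −2.37 in WT and −1.67, −1.64, −1.36 and −1.80 in Sting gt/gt mice on scan day 2, a change of 1.06. Both calls were lost without WT replicate 1, 2, 3, 4, 6 or 7 or Sting gt/gt replicate 1, 3, 5 or 6, with adjusted p up to 0.105 for Hsp90b1 and 0.106 for Sdc1, and also with no scaling (0.143 for both) and no filter on dim probes (0.110 for both), that of Sdc1 with the mean of probes too (0.0513). Over all alternatives p ran from 0.0091 and 0.0095 to 0.143. All Sting gt/gt arrays of scan day 2 were on 1 slide, so slide and genotype cannot be told apart there.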

How the results depend on the processing

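The number of genes called between the genotypes, 868, was 1928 with the authors' series table, 4758 with an intensity trend and array weights, 445 with a random block for slide, 1416 with the replicate number as a block (pairing, which also ended the call of Sdf2l1 and of no other named gene), 1812 with scan day as a term and 5805 within scan day 2 alone, and 496 to 1967 when 1 mouse was left out. Single scan days gave 961 calls (595 with no scaling, 506 to 1608 with 1 mouse left out) on the first and 5805 (4114 to 6985) on the second. The 9659 scan day calls became 0 in the series table (limma; 347 unadjusted) and 14599 with no filter, and without 1 array 8232 to 9669. The 190 interaction calls became 68 with median centring, 0 with no scaling (limma; 3056 unadjusted), 110 with the series table, 374 with the filter on every array, 0 with no filter (limma; 4879 unadjusted), 125 with the mean of probes, 1143 with weights, 554 with the slide block, and 0 (limma; 3657 to 4487 unadjusted) to 752 without 1 array. A t-test gave 997 calls by genotype and an exact Mann-Whitney test 715, with 1 and 0 after adjustment.

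For the 10 genes, the 4 scan day calls became 0 in the series table, 5 with quantile normalization (Hspd1 gained) and 6 with the mean of probes (Hspa8 and Hspe1 gained), and 3 to 4 without 1 array. Without 1 array 5 to 7 genes were lower in Sting gt/gt mice (median −0.15 to −0.024). With slide as a random block 9 were lower (−0.18) and with slide as a fixed block 8 (−0.24). No change of scaling turned the genotype sign of any of the 10 over all mice, but on scan day 1 the number lower went from 9 to 10 with median centring or no scaling, and on scan day 2 from 5 to 4 with median centring. The sign of Hspa1a, Hspa1b, Hspa8, Hsph1 and Hspe1 held in all 30 alternatives, and that of the others turned in 1 to 6 (slide fits, single scan days and, for Hsp90aa1, Bag3 and Hspb1, a mouse left out). Scan day differences turned sign for Hspa8 (quantile 0.034, median centring 0.026, series values 0.069, mean of probes 0.28) and Hspe1 (0.065, 0.12, normexp 0.016, series values 0.0062), for Jund (quantile 0.16, normexp 0.14, series values 0.080), Camp (quantile 0.25) and Hba-a1 (quantile 0.046, series values 0.0078), and in the series table for Bag3 (−0.071), Dnaja3 (−0.041), Cd4 (0.051), Ermap (0.042), Slc4a1 (0.13) and Ppbp (−0.077). With slide as a fixed block Dnajb4 (0.091) turned by genotype. The series table ended all 47 named scan day calls, of which 26 held in every other alternative; the cause was not tested. Median centring moved the median scan day difference of all genes to 0.17. Of genotype calls 53.5% were higher, against 30.6% with median centring and 19.5% with no scaling; of scan day calls 44.2%, against 55.1% with quantile normalization and 69.9% with median centring.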

Other observations

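Markers of spleen cell types were read beside the heat shock genes, as lists with their scan day and genotype counts. All genes of these lists that were tested were well above background on all arrays, and the part of any cell type in the heat shock values was not tested. On scan day 2, 3 of 5 neutrophil genes fell, S100a8 by 1.11, S100a9 by 1.07 and Camp by 0.44 (but higher by 0.25 under quantile normalization), and Ly6g was not tested. Of the erythroid genes 3 of 6 fell, Hba-a1 by 0.70 (but higher by 0.046 under quantile normalization), Ermap by 0.62 and Slc4a1 by 0.47. Of the dendritic cell genes 1 of 4 fell, Siglech by 2.21, and 1 rose, Flt3 by 0.83. Plasma cell genes rose in 3 of 5 (Xbp1 0.54, Sdc1 0.53 and Irf4 0.42) and NK cell genes in 3 of 4 (Gzma 0.57, Klrb1c 0.56 and Ncr1 0.54). Of the T cell genes Cd8a rose by 0.75 and Cd4 fell by 0.57, Pax5 of the B cell list fell by 0.57, and Cd14, Ppbp and Pecam1 rose by 0.35, 0.31 and 0.73 in the lists of macrophages, platelets and stroma. These counts stand beside 17.1% of all genes that were higher and 21.6% that were lower, and are too few to set against them. In the authors' series table none of these calls passed (limma; 347 of all genes did by an unadjusted p under 0.05). The calls of Camp (−0.37) and Klrb1c (0.50) were lost without Sting gt/gt replicate 2, that of Ncr1 (0.46) without WT replicate 3 and that of Ppbp (0.27) without WT replicate 1. Sdc1 lost its call without Sting gt/gt replicate 1, 2 or 3 (0.45 to 0.47), Gzma without WT replicate 1, 3, 5 or 7 or Sting gt/gt replicate 2 (0.49 to 0.56), Slc4a1 without WT replicate 1, 3 or 7 or Sting gt/gt replicate 1, 2 or 7 (−0.46 to −0.33), and Cd14 without WT replicate 1, 3, 4 or 5 or Sting gt/gt replicate 1, 2, 6 or 7 (0.31 to 0.35). Calls were also lost with median centring (Camp −0.26, Ermap −0.44 and Slc4a1 −0.29), normexp (Ncr1 0.20 and Slc4a1 −0.40), quantile normalization (Slc4a1 −0.069, Camp and Hba-a1), no scaling (Gzma 0.60 and Ppbp 0.34), no filter (Cd14 0.35), weights (Sdc1 0.38) and the mean of probes (Klrb1c 0.20).

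By genotype, all 6 B cell genes were lower in Sting gt/gt mice on scan day 2 (median −0.49) and 1 of 6 on scan day 1 (median 0.21), and none was called at an unadjusted p under 0.05 over all mice. The summed signal of the B cell list, with the highest signal from Cd79b, was 126 to 176 in WT and 102 to 120 in Sting gt/gt mice on scan day 2, whereas on scan day 1 the sums overlapped (101 to 139 in WT and 105 to 151 in Sting gt/gt mice). The sums of the plasma cell list, with the highest signal from Jchain, were apart on both days, in opposite directions. Its genes did not all move so. Of the 5, 3 were lower in Sting gt/gt mice on scan day 1 and 2 on scan day 2. Prdm1 (0.0030 and −0.28) and Irf4 (0.032 and −0.16) went the other way. The sums were 73.5 to 79.3 in WT and 61.7 to 69.1 in Sting gt/gt mice on scan day 1. On scan day 2 they were 73.0 to 94.5 in WT and 102 to 139 in Sting gt/gt mice.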
